A study of Homo sapiens with 12 samples.

Results

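The 8 genes FGF21, GDF15, STC2, ADM2, ADM, INHBE, VEGFA and ANGPTL4 encode secreted factors whose transcripts are known to rise under cell stress. They were taken by gene symbol from a pair of raw count tables, of 30984 genes for KYSE30 and 78691 genes for U138MG, and all 8 were listed in both. Poly-A RNA was sequenced from 12 libraries, with n = 3 in each of 4 groups: KYSE30 with DMSO, KYSE30 with PTDSS1i, U138MG with DMSO and U138MG with PTDSS1i. PTDSS1i is DS55980254, a small-molecule inhibitor of phosphatidylserine synthase 1, given at 100 nM for 48 h, and DMSO is its vehicle. KYSE30 is an established line of esophageal squamous cell carcinoma, U138MG is labelled as a glioblastoma line, and the genotype of all 12 libraries is given as WT. The comparison asked how far the RNA of each factor changed when phosphatidylserine synthesis was blocked, and whether the change differed between the lines. Only RNA was measured, so the values say nothing of secreted protein.

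When misfolded proteins, lack of amino acids or other stresses activate kinases that phosphorylate eIF2alpha, translation of the transcription factor ATF4 rises, and ATF4 with its partners switches on a set of genes. FGF21, GDF15, STC2, ADM2 and INHBE are known targets or followers of that pathway, and through them a stressed cell can signal beyond itself. VEGFA and ADM are classic targets of the hypoxia-inducible factors, VEGFA also answers to ATF4, and ANGPTL4 is driven by both hypoxia-inducible factors and the lipid-sensing PPAR receptors.

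The depth of the libraries was even, at 18800932 to 25233442 counts in KYSE30 and 19141002 to 26514658 counts in U138MG. The lineage markers went against the label of the second line. In the DMSO libraries labelled U138MG, 6 squamous markers summed to between 6203 and 7010 CPM (counts scaled to a fixed library total) and 4 epithelial markers to between 3176 and 3261 CPM, against 157 to 167 CPM and 7671 to 8167 CPM in KYSE30. The squamous sum in U138MG was mostly KRT15 and KRT5, at mean CPM of 4861 and 1470. TP63 and DSG3 were also higher in U138MG than in KYSE30. KRT14 had at most 7 counts in U138MG and 10 in KYSE30, and KRT6A was lower in U138MG (0.488 against 5.22 CPM). The 7 glial markers summed to 43.0 to 45.8 CPM in U138MG, of which SOX2 gave 38.9 CPM on average. Those listed for KYSE30 summed to 97.6 to 103 CPM, and SOX2 was at 99.4 CPM on average. In the DMSO libraries labelled U138MG, S100B and OLIG2 were at 0 counts and GFAP at 2.24 normalized CPM. The 6 mesenchymal markers summed to 841 to 872 CPM there, with SPARC at 677 and vimentin (VIM) at 0.195 normalized CPM, against 98.3 to 149 CPM in KYSE30. In KYSE30 with DMSO the squamous marker TP63 was at 94.6 normalized CPM and KRT5 at 0.0587. In the libraries labelled U138MG the squamous sum fell to between 1157 and 1284 CPM under PTDSS1i. The epithelial sum fell to between 2460 and 2524 CPM, the mesenchymal sum to between 449 and 464 CPM and the glial sum to between 7.96 and 9.40 CPM. Of the glial markers, SOX2 went from 37.0 to 4.52 normalized CPM. Not every marker fell in the U138MG libraries. By edgeR adjusted p under 0.05, 2 squamous markers were higher and 3 lower, and 2 and 2 epithelial. The glial list gave 1 and 3, and the mesenchymal list 1 and 2, where 33.9% and 33.6% of all tested genes were. EPCAM went from 235 to 366 and KRT18 from 645 to 892 normalized CPM. KRT6A and NES, among the higher, passed the filter on low counts through the PTDSS1i libraries alone. All 4 sums thus moved with every change given for this line, and their part in those changes was not tested. In KYSE30 under PTDSS1i the squamous sum was 172 to 177 CPM and the epithelial sum 9807 to 10086 CPM. The mesenchymal sum there was 86.4 to 90.5 CPM and the glial sum 86.4 to 89.3 CPM. The KYSE30 libraries are all labelled batch 1 and the U138MG libraries batch 2, so line and batch cannot be told apart.

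In KYSE30, 4 of the 6 members tested in both lines rose under PTDSS1i: GDF15, ANGPTL4, ADM2 and VEGFA. In the libraries labelled U138MG, 5 of the same 6 rose, namely these 4 with STC2, and ADM showed no detectable change. A gene was counted as risen where edgeR's quasi-likelihood test gave a Benjamini-Hochberg adjusted p under 0.05 and a log2 fold change over 1, which 6.4% of 16389 tested genes met in KYSE30 and 8.19% of 17666 in U138MG. None of the 6 fell past that threshold, which 7.04% and 11.6% of genes did. FGF21 and INHBE were below the filter on low counts in KYSE30, and in U138MG they passed it through the PTDSS1i libraries alone. They therefore had to differ, are left out of these numbers of risen genes, and their counts are given with no p. The members were chosen with earlier results of these data known, so the shares and medians of all genes are set beside them as description and not as a test. The median log2 fold change over the 6 members tested in both lines was 2.27 in KYSE30 and 2.39 in U138MG, beside a median of -0.03 over all tested genes in each line. Every PTDSS1i library lay above every DMSO library for 6 of these 6 in KYSE30, where 32.1% of all tested genes did so, and for 5 of 6 in U138MG, where 35.5% did. None lay wholly below, as 34.2% and 35.9% of genes did. By adjusted p alone 6 of 6 were higher in KYSE30 (30.1% of tested genes) and 5 of 6 in U138MG (33.9%), and none lower (32% and 33.6%). Bulk RNA cannot tell fewer expressing cells from less RNA per cell.

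**Figure D1:**
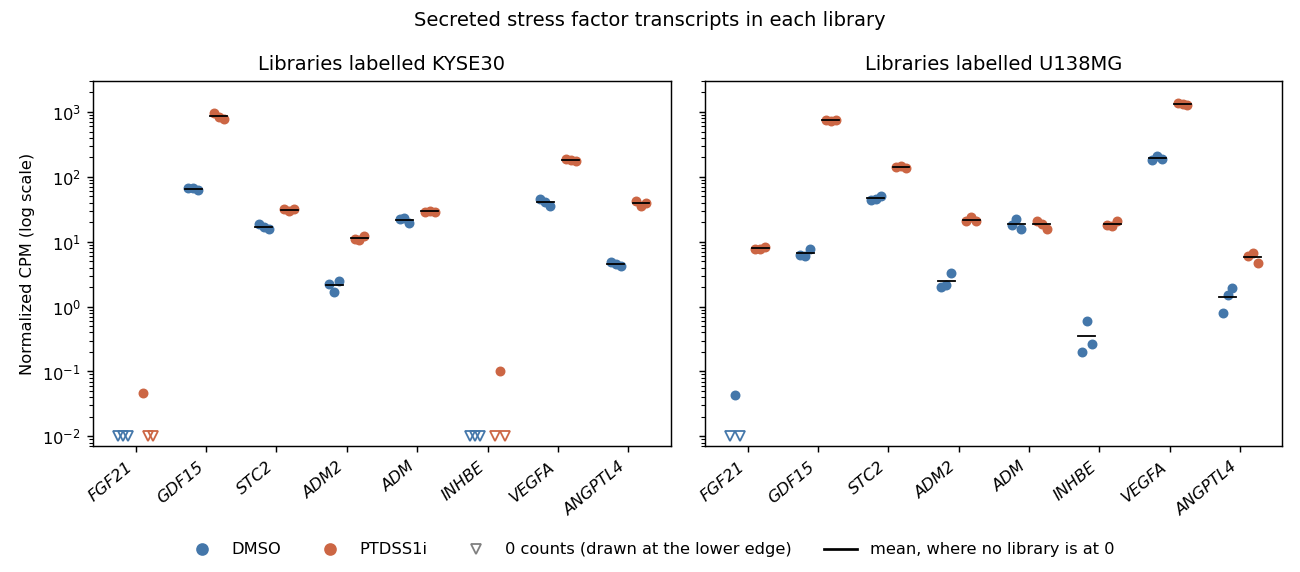
Normalized CPM of each gene (vertical axis, log scale) in each of the 12 libraries, with DMSO in blue and PTDSS1i in orange. Bars mark the mean of 3 libraries where none is at 0, and open triangles at the lower edge mark libraries with 0 counts. FGF21 and INHBE are nearly empty in KYSE30 and rise in U138MG, and ADM overlaps between the groups only in U138MG.

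FGF21 is a hormone of the fibroblast growth factor family that acts on metabolism through FGF receptors and the coreceptor beta-Klotho. Its gene lies at chr19:48755559-48758333 on the plus strand (GRCh38, GENCODE release 29). KYSE30 held 0 counts in each of the 3 DMSO libraries and 1, 0 and 0 counts in the PTDSS1i libraries, all at or under the floor of 3 counts, so no fold is given. The U138MG libraries held 0, 1 and 0 counts with DMSO and 178, 166 and 211 counts with PTDSS1i. The treated libraries were all far above the vehicle libraries, with no overlap. Their normalized CPM was 7.80, 7.63 and 8.42, which is at least 58.1-fold higher than 3 counts per DMSO library would give. FGF21 passed the filter on low counts through these treated libraries alone, so the lack of overlap is description and no test.

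The RefSeq window of 250 bases before the FGF21 start (GRCh38.p14) held the letters TTNCATCA, a form of the C/EBP-ATF response element through which ATF4 and C/EBP factors bind DNA. The match is shown because FGF21 was the only member of 6 with a window in which these letters were found on either strand. It lies on the plus strand, from 54 to 47 bases before the start, at chr19:48755459-48755488 with its neighbours, and capitals mark the match.
FGF21: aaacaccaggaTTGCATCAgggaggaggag
The same letters occur in 3.14% of 35116 promoter windows of that length. A match is a string of letters and not an occupied site.

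GDF15 is a stress hormone of the TGF-beta superfamily that suppresses appetite through the receptor GFRAL in the hindbrain. Its gene lies at chr19:18374731-18389176 on the plus strand. In KYSE30 its normalized CPM was 67.0, 67.2 and 61.6 with DMSO and 955, 836 and 774 with PTDSS1i, a log2 fold change of 3.71 (SE 0.07, edgeR adjusted p = 7.58e-18). In U138MG it was 6.33, 6.10 and 7.62 with DMSO and 742, 721 and 764 with PTDSS1i, a log2 fold change of 6.79 (SE 0.06, adjusted p = 1.50e-34). The vehicle levels of the lines were apart and the treated levels close together: the group means went from 65.3 ± 3.14 to 854.8 ± 92.0 in KYSE30 and from 6.68 ± 0.82 to 742.6 ± 21.3 in U138MG (SD, n = 3), with no overlap of groups in either line. The tables were scaled separately, so levels across lines are set side by side without a test. GDF15 held place 12 of 16389 genes by log2 fold change in KYSE30 and place 21 of 17666 in U138MG.

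INHBE encodes the beta E subunit of inhibin and activin, a protein made chiefly by the liver. Its gene lies at chr12:57452323-57459280 on the plus strand. KYSE30 held 0 counts with DMSO and 0, 2 and 0 counts with PTDSS1i, so that no change could be measured at this depth. The U138MG libraries held 4, 14 and 6 counts with DMSO and 409, 384 and 532 with PTDSS1i. All treated libraries were above all vehicle libraries, with a log2 fold change of 5.69 (SE 0.20). INHBE passed the filter on low counts there through the treated libraries alone, so these values are description and no test. The second DMSO library was the highest of the 3, and without it the log2 fold change was 6.30.

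STC2, a secreted glycoprotein that inhibits the protease PAPPA and takes part in calcium and phosphate handling, changed less. Its gene lies at chr5:173314713-173329503 on the minus strand. In KYSE30 its normalized CPM was 18.5, 16.8 and 16.0 with DMSO and 32.3, 30.3 and 31.5 with PTDSS1i, a log2 fold change of 0.88 (SE 0.07, edgeR adjusted p = 1.34e-09) that passed the test but not the threshold of 1 on size. In U138MG it was 44.2, 45.8 and 51.1 with DMSO and 140, 145 and 139 with PTDSS1i, a log2 fold change of 1.59 (SE 0.05, adjusted p = 1.69e-21). The groups did not overlap in either line.

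The hormones adrenomedullin (ADM) and adrenomedullin 2 (ADM2, also called intermedin) widen blood vessels through the receptor CALCRL joined to a RAMP protein, and their RNA behaved differently. ADM2, at chr22:50481556-50486440 on the plus strand, had 2.20, 1.66 and 2.51 normalized CPM with DMSO in KYSE30 and 11.0, 10.5 and 12.3 with PTDSS1i, a log2 fold change of 2.40 (SE 0.14, edgeR adjusted p = 4.09e-12). In U138MG it had 1.99, 2.18 and 3.32 with DMSO and 20.6, 24.1 and 21.2 with PTDSS1i, a log2 fold change of 3.13 (SE 0.13, adjusted p = 1.13e-15). No treated library overlapped a vehicle library in either line.

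ADM, at chr11:10304680-10307397 on the plus strand, had 22.1, 23.1 and 19.2 normalized CPM with DMSO in KYSE30 and 29.2, 29.8 and 28.99 with PTDSS1i, a log2 fold change of 0.45 (SE 0.08, edgeR adjusted p = 2.16e-05). The groups were apart but the change was under the threshold on size. In U138MG it had 17.8, 22.7 and 15.6 with DMSO and 21.0, 19.04 and 15.6 with PTDSS1i, a log2 fold change of -0.02 with a 95% confidence interval of -0.44 to 0.40 (edgeR adjusted p = 0.929). The groups overlapped, and the interval leaves room for changes of up to 0.44 in size. The second DMSO library was the highest for ADM and also for a list of 13 hypoxia genes, which summed to 3265 CPM there against 2636 and 2577 CPM in the other DMSO libraries. Without it the ADM value was 0.15 (adjusted p = 0.279), and the part of that list in the ADM values was not tested.

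VEGFA, the principal growth factor of blood vessels, was among the most abundant of the 8 transcripts. Its gene lies at chr6:43770184-43786487 on the plus strand. In KYSE30 its normalized CPM was 45.9, 41.1 and 36.1 with DMSO and 186, 184 and 177 with PTDSS1i, a log2 fold change of 2.15 (SE 0.07, edgeR adjusted p = 4.52e-16). In U138MG it was 179, 212 and 191 with DMSO and 1380, 1338 and 1289 with PTDSS1i, a log2 fold change of 2.78 (SE 0.06, adjusted p = 5.88e-13). The groups did not overlap in either line. The counting is not stated to use strand, and 188 bases (1.30%) of the annotated exons overlap an antisense gene, AL136131.3, whose reads cannot be told apart there.

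ANGPTL4, an inhibitor of lipoprotein lipase that holds back the uptake of circulating triglyceride, had a larger response in KYSE30, as ADM did. Its gene lies at chr19:8363289-8374373 on the plus strand. In KYSE30 its normalized CPM was 4.93, 4.53 and 4.29 with DMSO and 42.6, 35.3 and 39.5 with PTDSS1i, a log2 fold change of 3.10 (SE 0.10, edgeR adjusted p = 1.05e-16). In U138MG it was 0.798, 1.53 and 1.95 with DMSO and 6.00, 6.71 and 4.75 with PTDSS1i, a log2 fold change of 2.00 (SE 0.24, adjusted p = 1.67e-07). The groups did not overlap, and the 16 to 44 counts per vehicle library in U138MG went with an SE larger than in KYSE30. It held place 38 by log2 fold change in KYSE30 and place 460 in U138MG.

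**Figure D2:**
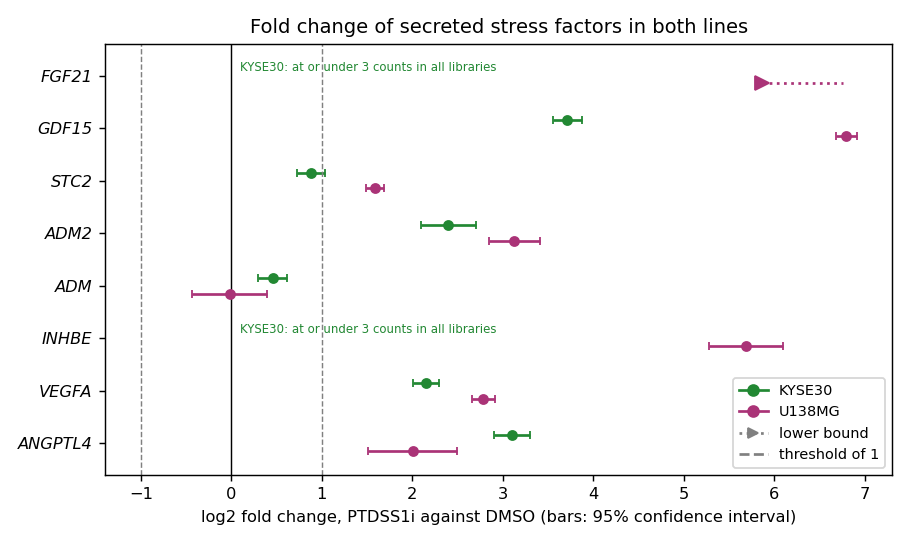
Log2 fold change of PTDSS1i against DMSO (horizontal axis) for each gene in KYSE30 (green) and U138MG (purple), with 95% confidence intervals from edgeR and dashed lines at the threshold of 1. The triangle for FGF21 is a lower bound at 58.1-fold, ADM in U138MG spans 0, and ANGPTL4 and ADM are the genes whose value is larger in KYSE30. INHBE in U138MG passed the filter through the treated libraries alone, so its interval is no test.

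The change differed between the lines for all 6 members that could be compared, in one model of all 12 libraries with a term for the difference, a result that 49.9% of 18405 tested genes also gave. The log2 fold change was larger in U138MG by 3.04 for GDF15 (95% confidence interval 2.80 to 3.28, edgeR adjusted p = 2.63e-14). It was larger there by 0.69 for ADM2 (0.22 to 1.16, adjusted p = 0.0122), 0.67 for STC2 (0.49 to 0.85, adjusted p = 1.56e-07) and 0.59 for VEGFA (0.39 to 0.79, adjusted p = 2.44e-05). The direction was opposite for ANGPTL4, with a difference of -1.14 (-1.69 to -0.59, adjusted p = 8.59e-04), and for ADM, with -0.51 (-0.89 to -0.13, adjusted p = 0.0253). The ADM2 and ADM differences were not past the threshold without the third KYSE30 DMSO library (0.53, adjusted p = 0.0974, and -0.45, adjusted p = 0.0551), and that of ADM2 also not without the first U138MG DMSO library (0.55, adjusted p = 0.0557). FGF21 and INHBE were at or under 3 counts in every KYSE30 library, so their fold changes could not be compared, and line and batch cannot be told apart in any of these values.

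The 8 genes together made up more RNA with PTDSS1i, and GDF15 took a larger share of it in both lines. Their summed CPM went from 157 ± 9.84 to 1107 ± 89.8 in KYSE30 and from 285 ± 21.6 to 2179 ± 44.5 in U138MG (SD, n = 3), which is 0.0157% and 0.111% of all counts in KYSE30 and 0.0285% and 0.218% in U138MG. GDF15 supplied 43.1% of the sum with DMSO and 74.4% with PTDSS1i in KYSE30, and 2.48% and 32.4% in U138MG. VEGFA supplied 27.02% and 15.9% in KYSE30 and 71.6% and 58.2% in U138MG. GDF15 was the main component in KYSE30 and VEGFA in U138MG, with DMSO as with PTDSS1i, by counts that favour long transcripts.

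**Figure D3:**
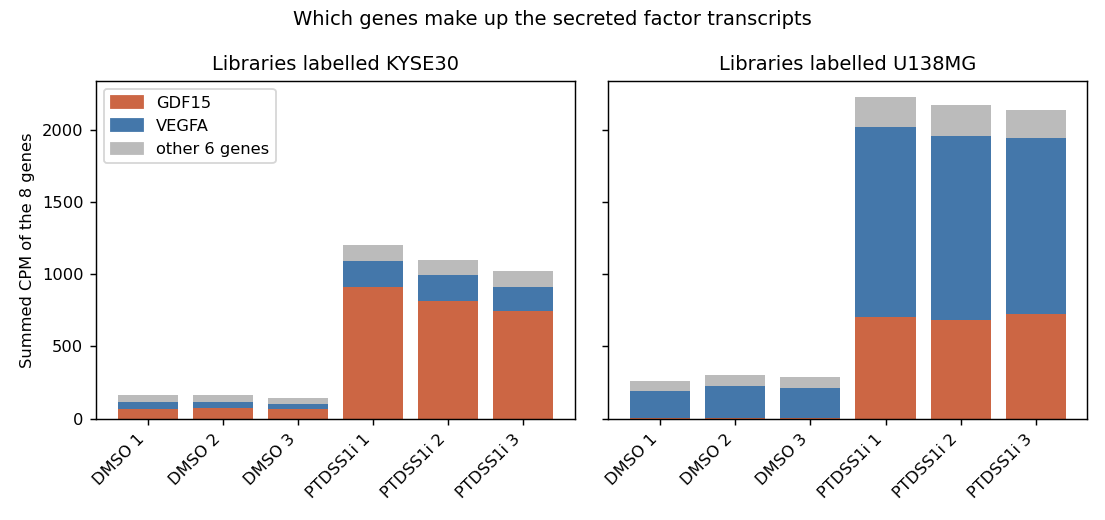
Summed CPM of the 8 genes (vertical axis, from 0) in each library, divided into GDF15 (orange), VEGFA (blue) and the other 6 genes (grey). The treated KYSE30 bars are mostly GDF15 and reach 1107 CPM on average, and the treated U138MG bars are mostly VEGFA and reach 2179 CPM on average.

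Per kilobase of annotated exons, GDF15 was the highest member in 3 of the 4 groups, at 31.3 ± 1.51 normalized CPM per kb in KYSE30 with DMSO, 410 ± 44.1 with PTDSS1i, and 356 ± 10.2 in U138MG with PTDSS1i (SD, n = 3). In KYSE30 with DMSO it was followed by ADM (7.90 per kb), VEGFA (2.84), STC2 (2.79), ANGPTL4 (1.85) and ADM2 (0.496), where the libraries of VEGFA and STC2 overlapped. With PTDSS1i the order in KYSE30 was GDF15, ANGPTL4 (15.8 per kb), VEGFA (12.6), ADM (10.8), STC2 (5.12) and ADM2 (2.64), with no overlap between neighbours. ANGPTL4 thus moved from the fifth place to the next after GDF15.

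In U138MG with DMSO the order per kb was VEGFA (13.4), STC2 (7.68), ADM (6.88), GDF15 (3.20), ADM2 (0.584), ANGPTL4 (0.575) and INHBE (0.117), and STC2 overlapped ADM, as did ADM2 with ANGPTL4. With PTDSS1i it was GDF15, VEGFA (92.5 per kb), STC2 (23.1), ADM (6.82), INHBE (6.28), FGF21 (6.05), ADM2 (5.14) and ANGPTL4 (2.35). The libraries of ADM, INHBE and FGF21 overlapped from neighbour to neighbour. FGF21 and INHBE thus came from almost no RNA to a level per kb like that of ADM. The lengths join all annotated exons of a gene, 14431 bases for VEGFA, and understate a gene whose main transcript is shorter.

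Several receptors through which these factors act were at or near the floor. KLB, the beta-Klotho of FGF21, had at most 4 counts in a U138MG library, GFRAL and the vascular receptor KDR had at most 0 and 3, and RAMP2 and RAMP3 had at most 3 and 1. KDR had at most 1 count in a KYSE30 library, and the KYSE30 table did not list the others. Of 19 receptor genes, 11 were tested in KYSE30 and none was past both thresholds, with 3 higher and 3 lower by adjusted p alone and a median of -0.03. In U138MG 12 were tested, with 2 higher and 7 lower by adjusted p alone and a median of -0.35. NRP2 rose there and FGFR3, NRP1 and FGFR2 fell past both thresholds. By adjusted p alone 30.1% of all tested genes were higher and 32% lower in KYSE30, and 33.9% and 33.6% in U138MG. Past both thresholds, for this list and those below, 6.4% of all tested genes rose and 7.04% fell in KYSE30. In U138MG 8.19% rose and 11.6% fell.

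The FGF receptor FGFR3 went from 164 ± 4.4 to 27.2 ± 0.89 normalized CPM in U138MG (log2 fold change -2.59, edgeR adjusted p = 3.82e-27). NRP1 and NRP2, coreceptors for VEGF proteins, moved in opposite directions there, by -2.16 and 1.64 on the log2 scale (adjusted p = 2.06e-15 and 9.89e-15). In KYSE30 both were higher by adjusted p, at 0.49 and 0.72, under the threshold on size.

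Different relatives of the members passed both thresholds in each line. Of 17 related genes, 6 were tested in KYSE30 and 2 rose, with a median log2 fold change of 0.47: PGF, another ligand of the VEGF family (2.23, edgeR adjusted p = 1.37e-10), and INHBB, which encodes another activin subunit (1.99, adjusted p = 3.24e-10). In U138MG 8 were tested and 2 others rose, with a median of 0.41: VEGFC, a growth factor of lymphatic vessels (2.41, adjusted p = 7.48e-14), and FGF19, a gut hormone of the FGF21 subfamily (1.75, adjusted p = 4.58e-08). The fold change differed between the lines for PGF (U138MG minus KYSE30 -2.49, adjusted p = 9.54e-05), INHBB (-1.23, adjusted p = 1.50e-04) and VEGFC (1.86, adjusted p = 2.36e-11), and FGF19 was not tested in KYSE30. By adjusted p alone 4 relatives were higher in each line and none lower. Of all tested genes 30.1% were higher in KYSE30 and 33.9% in U138MG. The 4 included VEGFB in both (0.43 and 0.36), VEGFC in KYSE30 (0.51) and INHBB in U138MG (0.80). STC1, the sister gene of STC2, was at -0.12 in U138MG and untested in KYSE30.

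Of 11 genes for enzymes that cut the factors or that the factors act on, 6 were tested in KYSE30 with none past both thresholds (median 0.34), and 9 in U138MG with 3 higher (median 0.60). These 3 were PAPPA, the protease that STC2 inhibits, FAP, which cleaves and inactivates FGF21, and GPIHBP1, which carries lipoprotein lipase on capillary walls. PAPPA had at most 4 counts in a DMSO library and at most 94 in a treated library of U138MG, and the normalized CPM of FAP went from 1.13 ± 0.27 to 2.63 ± 0.08. PAPPA and GPIHBP1 passed the filter through the treated libraries alone, so they had to differ, and the 3 and the median of 0.60 include them. LPL, the lipoprotein lipase that ANGPTL4 inhibits, had at most 4 counts in any library.

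Among the transcription factors known to act on such genes, ATF3, DDIT3 and XBP1 rose in both lines. Of 16 regulators tested in each line, 4 rose in KYSE30 (ATF3, DDIT3, ATF4 and XBP1, median of the list 0.42) and 7 in U138MG (DDIT3, ATF3, PPARG, XBP1, HIF1A, CEBPG and CEBPB, median 0.75), and none fell past the threshold. ATF3, a stress-induced partner of ATF4, had a log2 fold change of 2.13 in KYSE30 and 3.20 in U138MG (edgeR adjusted p = 2.04e-16 and 5.45e-27). DDIT3, which encodes CHOP, had 2.03 and 3.37 (adjusted p = 7.67e-14 and 6.15e-24). ATF4 itself was at 1.06 in KYSE30 and at 0.96 in U138MG, just under the threshold on size, and its difference between the lines was not past the test (-0.13, adjusted p = 0.0848).

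Intracellular targets of ATF4 rose in each line, among them ASNS, CHAC1, TRIB3, SLC7A11 and NUPR1 in both. Of 13 tested in KYSE30, 7 rose (median 1.08), and of 14 in U138MG, 9 rose (median 1.49), where 6.4% and 8.19% of all tested genes did. None was past the threshold downwards. By adjusted p alone 11 were higher and 1 lower in KYSE30, and 13 and 1 in U138MG. The lower gene was PHGDH in both, at -0.43 and -0.20. NUPR1 and VLDLR, among the 7 in KYSE30, passed the filter there through the PTDSS1i libraries alone, as FGF21 and INHBE did in U138MG. CHAC1, which degrades glutathione, had the largest value in each, 2.96 in KYSE30 and 4.36 in U138MG (edgeR adjusted p = 1.03e-14 and 8.18e-19). The fold change of 8 of the 13 genes tested in both lines was larger in U138MG and that of 2 larger in KYSE30. Of the 18405 genes in the model of all 12 libraries, 25.5% and 24.4% were. That model holds more genes than the 13990 tested in both lines.

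The hypoxia genes separated the lines. Of 12 tested in KYSE30, 8 rose with PTDSS1i and the median log2 fold change was 1.37, and of 13 in U138MG none was past both thresholds, with 2 higher and 3 lower by adjusted p alone and a median of -0.21. NDRG1, a growth-arrest gene that hypoxia induces, went from 53.0 ± 10.6 to 455 ± 29.6 normalized CPM in KYSE30 (log2 fold change 3.11, edgeR adjusted p = 2.50e-05) and from 566 ± 108 to 447 ± 99.5 in U138MG (-0.34, adjusted p = 0.281). The fold change was larger in KYSE30 for 11 of the 12 genes tested in both lines, and PFKFB3 was the exception (0.23, adjusted p = 0.208). Such a difference was found for 24.4% of the 18405 genes in the model of all libraries. Of the members known as hypoxia targets, ADM and ANGPTL4 had the larger value in KYSE30, as these genes did, and VEGFA in U138MG. HIF1A RNA rose in U138MG (1.56) and was at 0.41 in KYSE30. EPAS1 and ARNT, also on the list of regulators, were at 0.02 and -0.28 in U138MG and at 0.43 and 0.12 in KYSE30. The difference between the lines was 1.11 for HIF1A and -0.44 for both EPAS1 and ARNT (edgeR adjusted p = 5.15e-15, 2.39e-06 and 1.63e-06). Their part in the hypoxia genes was not tested, and the oxygen in the cultures was not among the measurements.

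Of 10 PPAR targets, 6 were tested in KYSE30 with none past both thresholds (median 0.39), and 5 in U138MG, with a median of 0.41. PLIN2, a coat protein of lipid droplets, was the 1 gene past both thresholds there, with at most 7 counts in a DMSO library and at most 36 in a treated library, and it passed the filter through the treated libraries alone. By adjusted p alone 5 targets were higher in KYSE30 and 3 in U138MG, PLIN2 among these 3, and none was lower. Of all tested genes 30.1% and 33.9% were higher. PPARG rose in U138MG from 8.05 ± 1.0 to 34.7 ± 2.8 normalized CPM (2.11, adjusted p = 1.76e-17) and was at 0.06 in KYSE30 (adjusted p = 0.516). PPARA was at 0.93 in KYSE30 and 0.54 in U138MG, and PPARD at -0.25 and 0.24, all with adjusted p under 0.05. The difference between the lines was 2.02 for PPARG, -0.44 for PPARA and 0.44 for PPARD (edgeR adjusted p = 5.86e-09, 4.42e-04 and 5.04e-05). ANGPTL4, a PPAR target as well, had the larger fold change in KYSE30, and the part of these receptors in it was not tested.

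Other secreted stress factors also rose. Of 11 tested in KYSE30, 4 rose and 1 fell (median 0.30), and of 10 in U138MG, 6 rose (median 1.30). CXCL8, the neutrophil attractant interleukin-8, had a log2 fold change of 2.50 in KYSE30 and 6.17 in U138MG (edgeR adjusted p = 2.82e-11 and 6.02e-26). LIF, a cytokine of the interleukin-6 family, had 1.98 and 4.82, and HBEGF, a ligand of the EGF receptor, had 1.43 and 4.98, all past both thresholds. Their differences between the lines were 3.64, 2.80 and 3.52 (adjusted p = 8.47e-13, 8.08e-12 and 1.39e-15). FST, the secreted inhibitor of activins, fell in KYSE30 (-1.38, adjusted p = 8.26e-08).

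**Figure D4:**
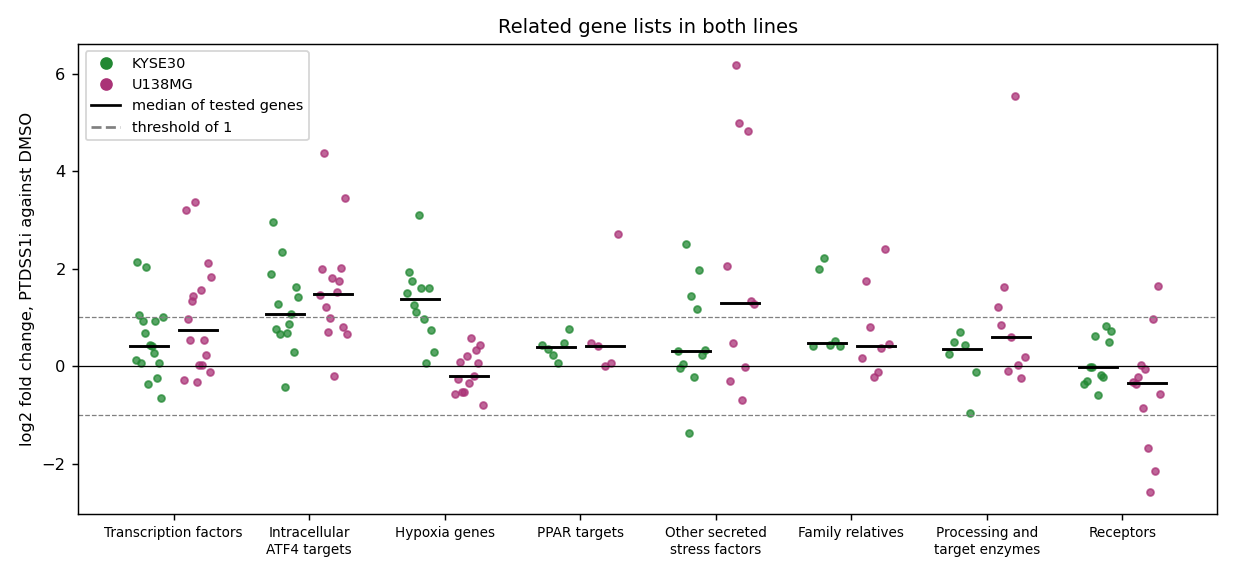
Log2 fold change of PTDSS1i against DMSO (vertical axis) for each tested gene of 8 related lists in KYSE30 (green) and U138MG (purple), with black bars at the medians and dashed lines at the threshold of 1. The medians of the ATF4 targets are 1.08 and 1.49, and those of the hypoxia genes are 1.37 in KYSE30 and -0.21 in U138MG.

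For the 6 members above the floor in all groups, the genes with the most similar course over the 12 libraries were sought among 10528 genes, by the root mean square difference (RMS) of log2 normalized CPM relative to the vehicle mean of the same line. STC2 had the closest neighbours, GOLGA3 (RMS 0.0536) and YIF1A (0.0648), which encode proteins of the Golgi and of transport to it. VEGFA was nearest to GOLGA7B (0.105) and ATF3 (0.220), and ADM2 to IL32 (0.141) and ATF3 (0.238). ANGPTL4 was nearest to MVD (0.285) and MSMO1 (0.287), both enzymes of cholesterol synthesis. ADM was nearest to ENSG00000272831 (0.0957) and ALS2CL (0.0983), and a small change has many neighbours. GDF15 had no close neighbour: NEURL3 (0.745) and CXCL8 (0.782) were the nearest. These values are descriptions of 12 libraries that share their controls.

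Promoter windows of RefSeq were at hand for 6 of the 8 members, not for INHBE and VEGFA. The core of the hypoxia response element, ACGTG or GCGTG on either strand, was found in 4 of the 6, STC2, ADM, ANGPTL4 and ADM2, and in 43.2% of 35116 windows, and no test was made. The window of GDF15 held none of the letters searched. The windows precede RefSeq starts, and those of STC2, ADM, ANGPTL4 and GDF15 lie inside the GENCODE loci given above. Annotated exons covered all 250 bases of the STC2 and ADM windows, 241 for GDF15, 101 for FGF21 and 4 for ANGPTL4. The ER stress response element, the unfolded protein response core TGACGTG (which contains ACGTG) and the cAMP response element TGACGTCA were found in none of the 6 and in 0.0740%, 1.68% and 1.65% of all windows. The window of ADM2 is shown because ADM2 rose in both lines and its window lies outside annotated exons. It is at chr22:50481293-50481542 (GRCh38.p14, plus strand), and capitals mark GCGTG, from 225 to 221 bases before the start.
ADM2: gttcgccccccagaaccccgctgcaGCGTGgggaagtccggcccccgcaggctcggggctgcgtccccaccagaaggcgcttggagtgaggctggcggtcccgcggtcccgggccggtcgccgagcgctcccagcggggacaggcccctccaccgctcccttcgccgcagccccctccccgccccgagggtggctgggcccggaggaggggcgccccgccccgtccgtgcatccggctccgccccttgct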

How the data were processed

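RNA from TRIzol extracts was made into TruSeq poly-A libraries. Per the labels, the authors trimmed reads with Trimmomatic, aligned them to hg38 with STAR and counted them with featureCounts, and deposited raw counts per gene, 1 table per line. Versions, gene annotation and strand setting are not given in the sources used here. The labels do not say whether replicates were separate cultures, so p-values measure the spread between these samples. edgeR 4.0.16 (robust quasi-likelihood, TMM factors, Benjamini-Hochberg adjustment) was fitted to all genes that passed filterByExpr (minimum count 10, minimum total 15) in each line, and to all 12 libraries for the difference between lines. Normalized CPM are counts divided by TMM-scaled library size. The floor is 3 counts per library, and such limits cover counting error only. The named genes are the 8 members, the called gene of largest change in each related list and line, genes called alike in both lines, and the 2 nearest patterns for each member. Other list genes named were chosen after their values were seen. Members and lists were chosen with earlier results of these data known. Alternatives were DESeq2 1.42.0, other scalings, filters, a replicate block and leaving out each library. Scripts were tested on simulated data. Loci are from GENCODE release 29, promoters from RefSeq.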

Additional observations from a re-analysis of the deposited data

Results flagged for a closer look

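A test of the difference itself separated the responses of the lines for 6 genes, given as the log2 fold change in U138MG minus that in KYSE30. The differences were 3.04 for GDF15, 0.67 for STC2, 0.69 for ADM2, -0.51 for ADM, 0.59 for VEGFA and -1.14 for ANGPTL4. The direction was thus toward U138MG for 4 genes and toward KYSE30 for ADM and ANGPTL4. Of all 18405 genes tested for such a difference, 49.9% passed, and line and batch cannot be told apart.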

How the results depend on the processing

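Under adjusted p alone, without the threshold on size, 4927 genes were higher and 5238 lower in KYSE30 (1049 and 1154 with it), and 5989 and 5930 in U138MG (1446 and 2048 with it), and STC2 (0.88) and ADM (0.45) then counted as risen in KYSE30. A filter of 10 counts in every library left 1273 genes lower in U138MG and removed FGF21 and INHBE there, which left 5 members called higher. ADM in U138MG, not past the test in any setting, changed sign to 0.0113 with no filter beyond 1 count, 0.147 without the second DMSO library and 0.103 without the third PTDSS1i library. Scaling by library size alone moved the median log2 fold change of all genes to -0.13 in KYSE30 and -0.17 in U138MG, with 4 and 7 members called higher, as under DESeq2 and upper-quartile scaling. The 7 include FGF21 and INHBE, here and below, which had to differ under the filter used. The members called higher were 4 and 7 in every fit that left out 1 library, and those with a difference between the lines 4 to 6. Whether replicate numbers pair the samples was not settled. Correlations of deviations between same-numbered libraries were 0.128, 0.102 and 0.0677 in KYSE30, where each library was closest to its own number. Other pairs ran from -0.125 to 0.0310 there. In U138MG same-numbered libraries gave -0.0133, 0.0147 and 0.0828, and other pairs -0.0978 to 0.0867. With the replicate block, 4 and 7 members were called higher and 6 differed between lines. Genes at or under 3 counts allow no fold, which limits FGF21 and INHBE in KYSE30. Of the 12 genes of most similar pattern, 10 were the same with a prior count of 0.5 in place of 2.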
